A study of Mus musculus with 10 samples.

Results

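The genes described here are the activators of the circadian clock and the regulators that act beside or against them: Clock, Arntl (also called Bmal1), Npas2, Nfil3, Bhlhe40, Bhlhe41, Csnk1d and Csnk1e. They were chosen by symbol, and all 8 were found among the 19999 genes of the deposited count table. All 8 passed the filter on low counts, which left 16852 genes to test. The libraries hold retinal RNA of Balb/c mice, an albino laboratory strain, 5 from a light-induced damage model and 5 from controls. In both groups the library name includes vehicle, and A74, an agent that the design text names, was not analysed here. The labels give one batch entry for all libraries and no light dose, time after exposure, time of day, age or sex. The labels do not say whether each library is its own animal, so every p-value reflects only how these libraries varied, which may be technical.

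The mammalian clock is a feedback loop of transcription. CLOCK, or its relative NPAS2, pairs with BMAL1, the product of Arntl, and binds E-box sequences in the genes of the repressors Per and Cry. PER and CRY proteins then block that pair, and casein kinases 1 delta and epsilon, the products of Csnk1d and Csnk1e, phosphorylate PER and set how long it lasts. A second loop drives Arntl and Nfil3 from ROR response elements, which ROR receptors activate and REV-ERB receptors (Nr1d1, Nr1d2) repress, so in many tissues their RNA peaks when that of Per genes is low. NFIL3 represses from D-box sequences that DBP, TEF and HLF activate, and BHLHE40 and BHLHE41 (DEC1 and DEC2) compete with the activators at E-boxes. The retina holds a clock of its own, with rhythms in dopamine, melatonin and photoreceptor function.

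The promoters of 3 genes show these elements and are printed because the receptors that bind one of them changed in these libraries while the genes that carry it did not pass the test. Each runs from 250 bases before to 50 bases after an annotated start, comes from RefSeq with build GRCm38.p6, and is written in the direction of its gene. The submitters' processing notes name GRCm39, so these positions do not apply to the counts. Capitals mark TAGGTCA or TAGGTTA, a core and a variant of the ROR response element, and the E-box CACGTG, each searched on both strands.
Arntl, second of 2 listed starts, chr7:113207261-113207560, plus strand: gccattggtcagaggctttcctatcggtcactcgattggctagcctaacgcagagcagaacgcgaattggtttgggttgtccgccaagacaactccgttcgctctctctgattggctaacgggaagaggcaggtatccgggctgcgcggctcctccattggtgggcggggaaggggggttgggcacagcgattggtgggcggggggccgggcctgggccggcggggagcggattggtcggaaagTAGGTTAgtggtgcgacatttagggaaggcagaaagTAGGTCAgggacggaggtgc
Nfil3, chr13:52980990-52981289, minus strand: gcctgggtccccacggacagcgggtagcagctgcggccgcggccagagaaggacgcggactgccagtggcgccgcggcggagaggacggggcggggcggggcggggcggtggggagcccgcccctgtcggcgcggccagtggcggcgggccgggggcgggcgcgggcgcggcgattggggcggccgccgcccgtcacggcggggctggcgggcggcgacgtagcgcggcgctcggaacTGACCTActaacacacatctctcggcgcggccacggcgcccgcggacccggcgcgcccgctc
Bhlhe41, chr6:145865371-145865670, minus strand: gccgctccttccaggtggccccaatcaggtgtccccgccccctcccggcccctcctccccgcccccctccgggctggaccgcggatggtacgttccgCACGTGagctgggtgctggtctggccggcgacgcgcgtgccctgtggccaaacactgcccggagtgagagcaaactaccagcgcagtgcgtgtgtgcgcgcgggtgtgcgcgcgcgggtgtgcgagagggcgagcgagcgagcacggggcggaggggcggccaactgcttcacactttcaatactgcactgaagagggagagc
In Arntl, whose first listed start lies close by and shares the variant at base 41, the variant began 6 bases before the start and the core at base 31 after it. In Nfil3 the core lay on the opposite strand, its first printed base 12 bases before the start. The core was present in 2.61% and the variant in 1.44% of all 32851 listed promoters of that length. Bhlhe41 held the E-box at 153 bases before its start, a sequence present in 7.15% of all listed promoters. Its last 5 letters are ACGTG, the core of the hypoxia response element, present in 19.6%. The other listed promoters, 3 of Clock, 1 of Npas2 and 4 of Csnk1e, held none of the E-box, core and variant letters, nor the D-box letters TTATGTAA and TTACGTAA or the cyclic AMP response element TGACGTCA. Npas2 held the hypoxia core once. Bhlhe40 and Csnk1d were not matched.

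Some libraries stood apart. Light damage replicates 1 and 2 had 17174 and 20414 counts of Xist, the transcript behind X inactivation in females, against 1 to 9 in the other libraries. The 9 lens markers in the table, 3 of which rose, summed to 7520 and 4015 CPM in these 2, to between 21.4 and 118 CPM in light damage replicates 3 to 5, and to between 3.28 and 31.4 CPM in controls. Rod markers summed to between 55327 and 77906 CPM in light damage and between 59800 and 97956 CPM in control. Müller glia markers, of which 4 of 8 rose, summed to between 5404 and 7623 CPM against 4081 to 5443 CPM, 3 of 8 bipolar, 2 of 8 amacrine and 2 of 6 horizontal cell markers rose, and no marker in the table was at 0. One of 8 rod markers rose and 1 of 8 cone markers fell. One of 6 microglia markers rose, with sums of 42.1 to 80.1 CPM in light damage and 31.2 to 41.9 CPM in control. Of 4 tested markers of ciliary body and iris 2 rose, with sums of 120 and 102 CPM in light damage replicates 1 and 2, 44.4 to 61.2 CPM in replicates 3 to 5 and 37.5 to 57.6 CPM in control. The part of cell makeup in the values of the clock genes was not tested. Total counts ran from 17900227 to 20337329 in light damage and from 14652535 to 20699236 in control.

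None of the 8 genes passed the test between light damage and control. The quasi-likelihood test of edgeR, adjusted by Benjamini-Hochberg over 16852 genes, called 0 higher and 0 lower at an adjusted p under 0.05, where 5.32% of all tested genes rose and 7.85% fell. Those shares stand for 896 and 1323 genes, counts that ran from 399 (without light damage replicate 3) to 1347 (without control replicate 1) and from 723 (without light damage replicate 1) to 1644 (without control replicate 1) when 1 library was left out. One of them, Clock, had an unadjusted p under 0.05, and DESeq2 and limma-voom also called 0. In all 8 the levels of the groups overlapped, whereas 9.79% of all tested genes did not overlap, 4.31% with light damage higher and 5.48% with it lower. The log2 fold changes, light damage over control, were positive for 5 and negative for 3, with a median of 0.02 against 0.00 over all tested genes. The median size of the change was 0.07 on the log2 scale, against 0.15 over all tested genes. The widest 95% interval, that of Npas2, reached -0.52 on the log2 scale, and the bounds of the other 7 lay between -0.33 and 0.29. Without light damage replicates 1 and 2, 0 of the 8 genes passed by edgeR, where 0.782% of all tested genes rose and 1.55% fell, 2.34% together. Clock then had a log2 fold change of -0.21 (95% interval -0.40 to -0.02, edgeR adjusted p = 0.20), Csnk1e of 0.11 (95% interval -0.03 to 0.26) and Arntl of 0.04 (95% interval -0.12 to 0.21).

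**Figure D1:**
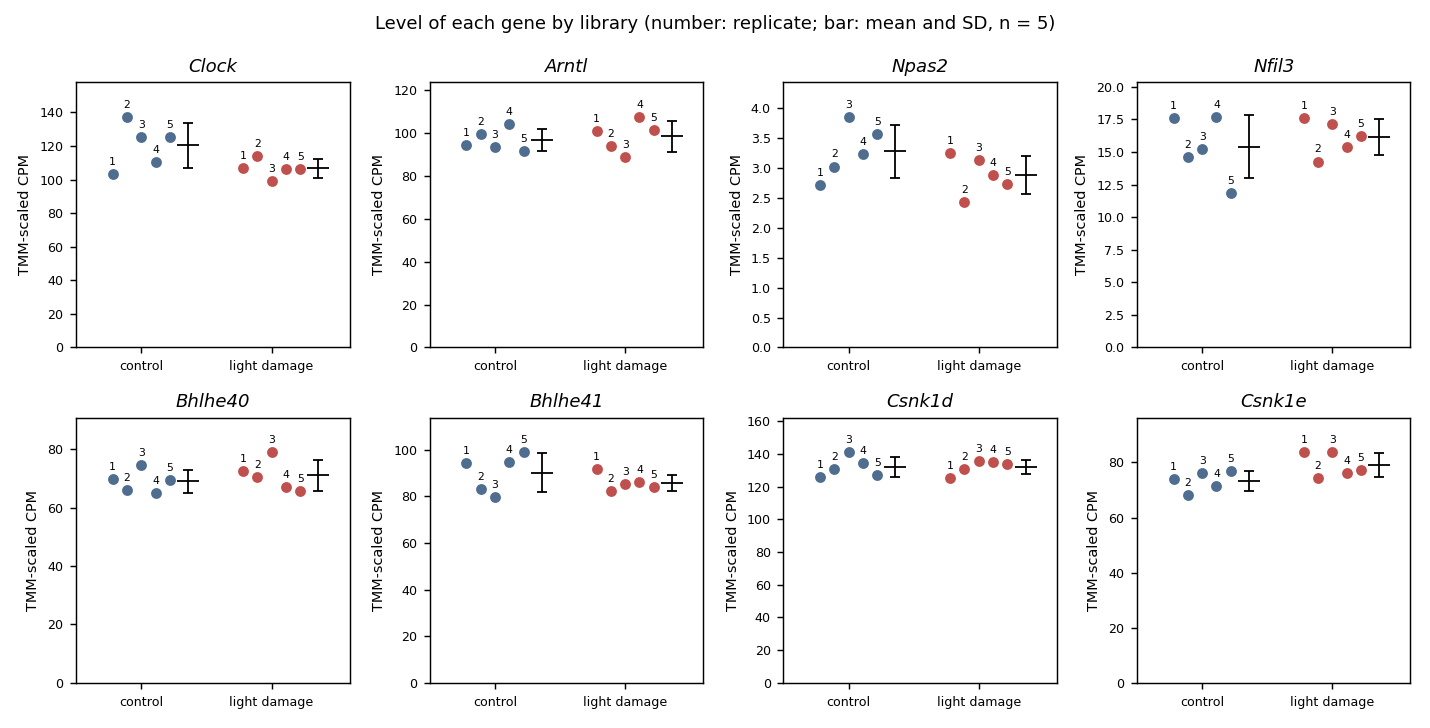
Level of each of the 8 genes in every library, in CPM (counts scaled to the library total) after TMM scaling, with the replicate number above each point and the mean and SD of 5 libraries beside them; each axis starts at 0. The points of the light damage and control groups overlap in every panel, and Clock has 3 controls above all light damage libraries.

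Clock (ENSMUSG00000029238), the DNA-binding partner of BMAL1 and a histone acetyltransferase, came closest to the threshold. In CPM, counts scaled by the TMM-adjusted library total, it had 107, 114, 98.9, 106 and 106 in light damage replicates 1 to 5 and 103, 137, 125, 111 and 126 CPM in control replicates 1 to 5. Control replicates 2, 3 and 5 lay above every light damage library, while control replicate 1 lay below 4 of them. The means were 107 ± 5.46 and 120 ± 13.5 CPM (SD, n = 5 each). The log2 fold change was -0.18 (SE 0.07, 95% interval -0.33 to -0.02, edgeR adjusted p = 0.11). Control replicate 1 decided that call: without it the log2 fold change was -0.22 and edgeR gave an adjusted p of 0.0285, while 9.65% of all tested genes were called lower. Control replicate 1 also had the largest total count, 20699236, and control replicates 2 and 5, the highest in Clock, had the smallest, 15612721 and 14652535; the part of depth was not tested. Clock has a long transcript, 9744 bases in its longest annotated form. The 3361 tested genes with the longest transcripts, from 5086 bases up, had a median log2 fold change of -0.07, with 15.5% lower and 1.64% higher; the part of length in the value of Clock was not tested. In retina as a whole, fewer cells of a type and less RNA per cell cannot be told apart, here or for any gene below.

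Arntl (ENSMUSG00000055116), the partner of both CLOCK and NPAS2, had 101, 93.9, 88.7, 108 and 102 CPM in light damage replicates 1 to 5 and 94.2, 99.4, 93.3, 104 and 91.8 CPM in control replicates 1 to 5. The groups covered nearly the same range, with the highest and the lowest library both in light damage. The means were 98.5 ± 7.29 and 96.6 ± 5.09 CPM (SD, n = 5 each), and the log2 fold change was 0.03 (SE 0.06, 95% interval -0.10 to 0.16, edgeR adjusted p = 0.784). On a linear scale that interval runs from 0.934-fold to 1.11-fold.

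Npas2 (ENSMUSG00000026077), which can stand in for CLOCK and is best known from forebrain, was scarce. It had between 47 and 71 counts in a library, a level of 3.24, 2.43, 3.12, 2.88 and 2.73 CPM in light damage replicates 1 to 5 and 2.72, 3.02, 3.85, 3.23 and 3.56 CPM in control replicates 1 to 5. Control replicates 3 and 5 were highest and light damage replicate 2 lowest, with the rest mixed. The log2 fold change was -0.18 (SE 0.16, 95% interval -0.52 to 0.15, edgeR adjusted p = 0.46). The interval allows a level from 0.697-fold to 1.11-fold of control, the widest of the 8 genes.

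Nfil3 (ENSMUSG00000056749), the D-box repressor, had 17.6, 14.3, 17.2, 15.4 and 16.3 CPM in light damage replicates 1 to 5. It had 17.6, 14.6, 15.2, 17.7 and 11.9 CPM in control replicates 1 to 5. The controls spread further, from the lowest of all libraries in replicate 5 to the highest in replicate 4. The log2 fold change was 0.07 (SE 0.11, 95% interval -0.16 to 0.29, edgeR adjusted p = 0.713). Dbp, the activator at the same D-box element, had a log2 fold change of 0.29 (95% interval 0.08 to 0.49, edgeR adjusted p = 0.059).

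The DEC repressors were both well detected. Bhlhe40 (ENSMUSG00000030103), also known as a gene induced by hypoxia and by activity, had 72.6, 70.5, 78.9, 67.1 and 65.8 CPM in light damage replicates 1 to 5 and 69.8, 66.0, 74.7, 64.9 and 69.4 CPM in control replicates 1 to 5. Replicate 3 was the highest library within each group. In these 2 libraries the 10 most abundant genes took the lowest share of the counts, 9.48% in light damage and 9.60% in control, against up to 13.6% elsewhere, and the part of this in the level of Bhlhe40 was not tested. The log2 fold change was 0.04 (SE 0.06, 95% interval -0.09 to 0.17, edgeR adjusted p = 0.678). Bhlhe41 (ENSMUSG00000030256), its close relative, had 91.5, 82.2, 85.3, 86.1 and 83.9 CPM in light damage replicates 1 to 5 and 94.3, 82.9, 79.6, 94.6 and 98.8 CPM in control replicates 1 to 5. The light damage libraries all lay inside the range of the controls. The log2 fold change was -0.07 (SE 0.06, 95% interval -0.20 to 0.07, edgeR adjusted p = 0.489). The longest annotated transcript of Bhlhe41 has 6133 bases, which puts it in the longest class described for Clock. The part of length in the value of Bhlhe41 was not tested.

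Of the PER kinases, Csnk1d (ENSMUSG00000025162) was the steadiest of the 8 genes, with the smallest SD of log2 CPM in both groups. It had 125, 131, 136, 135 and 134 CPM in light damage replicates 1 to 5 and 126, 131, 141, 135 and 127 CPM in control replicates 1 to 5. Its means, 132 ± 4.34 and 132 ± 6.07 CPM (SD, n = 5 each), gave a log2 fold change of 0.00 (SE 0.05, 95% interval -0.11 to 0.11, edgeR adjusted p = 0.992). Csnk1e (ENSMUSG00000022433) had 83.6, 74.5, 83.7, 76.3 and 77.3 CPM in light damage replicates 1 to 5 and 74.0, 68.2, 76.0, 71.3 and 76.8 CPM in control replicates 1 to 5. Light damage replicates 1, 3 and 5 lay above every control, and replicates 2 and 4 lay among them. The means were 79.1 ± 4.30 and 73.2 ± 3.54 CPM (SD, n = 5 each), and the fitted log2 fold change was 0.11 (SE 0.06, 95% interval -0.01 to 0.23, edgeR adjusted p = 0.191).

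Levels of different genes were compared per kilobase of the longest annotated transcript. In controls the order was Csnk1d at 35.9 ± 1.65, Arntl at 24.2 ± 1.27, Csnk1e at 23.1 ± 1.11, Bhlhe40 at 22.1 ± 1.24, Bhlhe41 at 14.7 ± 1.35, Clock at 12.4 ± 1.38, Nfil3 at 7.60 ± 1.19 and Npas2 at 0.774 ± 0.105 CPM per kilobase (SD, n = 5). Arntl, Csnk1e and Bhlhe40 overlapped in their library ranges, as did Bhlhe41 and Clock. Csnk1d, Nfil3 and Npas2 each stood clear of their neighbours. In light damage Csnk1e, at 24.9 ± 1.35, and Arntl, at 24.7 ± 1.82, changed places within overlapping ranges, the rest of the order was the same, and Bhlhe41 and Clock no longer overlapped. If shorter transcripts were in use, the levels of long genes such as Clock would be understated.

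Ratios within a library need no scaling between libraries, and 4 were compared. The log2 ratio of Clock to Npas2 counts was 5.20 ± 0.22 in light damage and 5.19 ± 0.19 in control (SD, n = 5 each; exact two-sided permutation p = 0.921, adjusted p = 0.921 over the 4 ratios). That of Bhlhe40 to Bhlhe41 was -0.27 ± 0.11 against -0.38 ± 0.18 (n = 5 each; exact permutation p = 0.294, adjusted p = 0.392). For the casein kinases the log2 ratio of Csnk1d to Csnk1e was 0.74 ± 0.10 against 0.85 ± 0.09 (n = 5 each; exact permutation p = 0.119, adjusted p = 0.238). At the D-box, the log2 ratio of Nfil3 to Dbp was -3.28 ± 0.07 against -3.06 ± 0.26 (n = 5 each; exact permutation p = 0.119, adjusted p = 0.238). None passed, and 0.00794 was the smallest p this design allows. For Nfil3 to Dbp, control replicate 1 lay at -3.25, among the light damage libraries, control replicate 5 at -3.41, below all of them, and control replicates 2, 3 and 4 at -2.94, -2.94 and -2.78, above all of them.

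**Figure D2:**
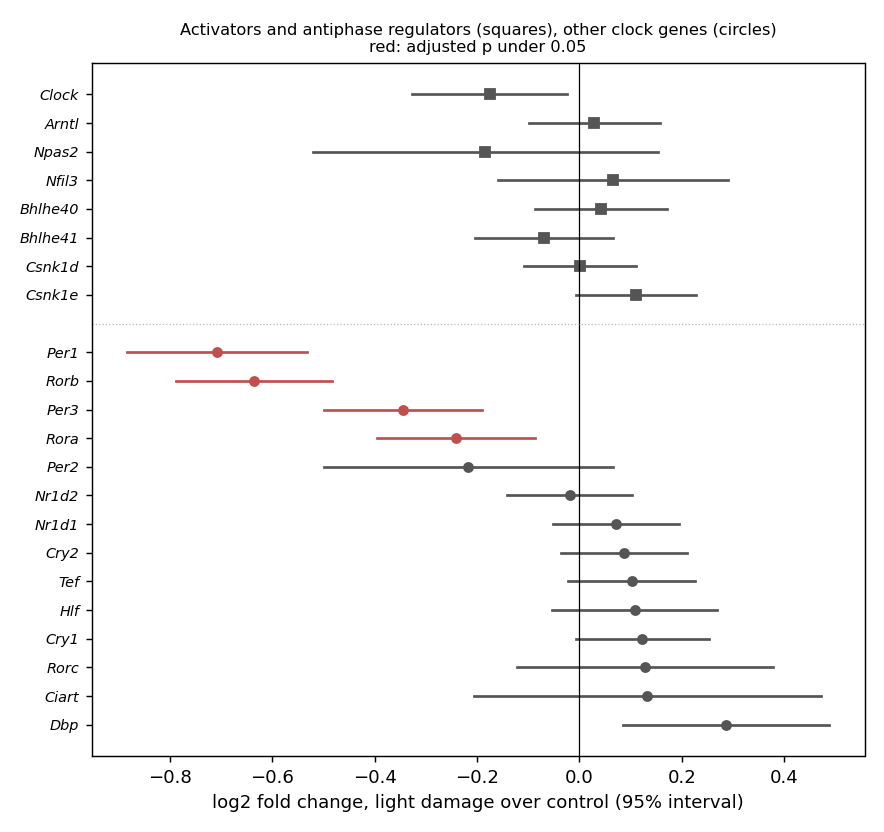
Log2 fold change of light damage over control with its 95% interval from edgeR, for the 8 activators and antiphase regulators (squares) and 14 repressors, ROR receptors and output genes (circles), red where the adjusted p is under 0.05. Squares lie between -0.18 and 0.11, while Per1 and Rorb lie at -0.71 and -0.64.

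The genes on the other side of the loop give the setting. Of 14 tested repressors, ROR receptors and PAR bZIP output genes, 4 fell and 0 rose, with a median log2 fold change of 0.08. Beside this and each list below stand the 7.85% of all tested genes that fell and the 5.32% that rose. Per1, a repressor, had a log2 fold change of -0.71 (95% interval -0.88 to -0.53) and Per3 of -0.34 (95% interval -0.50 to -0.19). The receptors Rorb and Rora fell by 0.64 and 0.24 on the log2 scale, and Rora did not pass in 7 of 10 leave-one-out fits (highest edgeR adjusted p = 0.113, without light damage replicate 3). The REV-ERB genes had log2 fold changes of 0.07 (Nr1d1, edgeR adjusted p = 0.431) and -0.02 (Nr1d2, edgeR adjusted p = 0.859). Beside these stand 0.03 for Arntl and 0.07 for Nfil3, the genes with the ROR response elements printed above. Among all 404 tested genes with the core or the variant in a listed promoter, 22 rose and 31 fell, 5.45% and 7.67%, with a median log2 fold change of 0.00. Among 11848 tested genes with any listed promoter 5.77% rose and 8.03% fell, with a median of 0.01. For the E-box, 80 of 1330 genes rose and 89 fell, with a median of 0.02, and for the 2 D-box forms 5 of 109 rose and 10 fell, with a median of 0.03.

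Of 14 tested bHLH-PAS relatives and coactivators, 2 fell and 0 rose. Arntl2, the paralog of Arntl also called Bmal2, had 2.40, 3.31, 2.93, 3.54 and 3.45 CPM in light damage replicates 1 to 5 and 4.37, 4.24, 5.91, 5.33 and 5.62 CPM in control replicates 1 to 5. Every light damage library lay below every control. Its log2 fold change was -0.70 (SE 0.16, 95% interval -1.03 to -0.37, edgeR adjusted p = 0.0101). Arnt, the common partner of HIF and AHR proteins, averaged 69.3 ± 2.48 against 82.9 ± 6.11 CPM (SD, n = 5 each), also without overlap, and fell by 0.26 on the log2 scale. Both kept their calls without any single library, and lost them without light damage replicates 1 and 2 together (edgeR adjusted p = 0.0809 and 0.0584).

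Of 16 other kinases and phosphatases 1 rose, Ppp2ca, a catalytic subunit of protein phosphatase 2A, with a log2 fold change of 0.21, and 0 fell. It did not pass in 3 of 10 leave-one-out fits (highest edgeR adjusted p = 0.0558, without light damage replicate 3). Of 12 ubiquitin ligases and deubiquitinases 2 fell, Usp2, a deubiquitinase with rhythmic expression, by 0.50 and Huwe1, a ligase, by 0.30 on the log2 scale. The mean level of Usp2 was 115 ± 7.38 CPM after light damage, against 162 ± 27.3 CPM (SD, n = 5 each), without overlap. Of 16 coactivators and corepressors 6 fell: the acetyltransferases Ep300 by 0.35 and Crebbp by 0.29, the histone methyltransferases Kmt2a by 0.50 and Kmt2c by 0.48, the deacetylase Sirt1 by 0.20 and the NuRD subunit Mta2 by 0.20 on the log2 scale. Ep300, Crebbp, Kmt2a, Kmt2c and Huwe1 have transcripts of 9566 to 16470 bases. They belong to the longest class described above, in which 15.5% of genes fell. So do Rora, Rorb, Per3, Hk2, Adcy1, Dio2 and, among higher genes, Ppp2ca. The part of length in these values was not tested. Crebbp, Huwe1, Kmt2c, Mta2 and Sirt1 did not pass in 4, 5, 2, 7 and 9 of 10 leave-one-out fits, where edgeR's highest adjusted p was 0.0704, 0.0651, 0.0613, 0.113 and 0.0971. These highest values came without light damage replicate 1 for Crebbp, control replicate 5 for Huwe1 and light damage replicate 3 for the rest.

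Of 7 tested genes whose expression is rhythmic in retina or elsewhere 4 fell, with a median log2 fold change of -0.28. They were Usp2, Drd4, the dopamine D4 receptor of photoreceptors, by 0.34, Adcy1, an adenylyl cyclase, by 0.28, and Dio2, a deiodinase that activates thyroid hormone, by 0.43 on the log2 scale. The last 3 did not pass in 7 of 10 leave-one-out fits each. Their highest edgeR adjusted p was 0.103 for Drd4 without light damage replicate 3, 0.0935 for Adcy1 without light damage replicate 1 and 0.0954 for Dio2 without control replicate 5. Of 15 tested hypoxia response genes, a group that Bhlhe40 is often listed with, 1 fell and 0 rose. That gene was Hk2, hexokinase 2, with a log2 fold change of -0.51, and the median of the list was 0.06. Over all 7 lists 1 of 93 tested genes rose and 18 fell, 20.4% in all. Of all tested genes 5.32% rose and 7.85% fell, 13.2% in all. The lists were chosen with earlier results of these data known, so this difference in shares carries no test. Of the 18, Per1, Rorb, Usp2, Dio2 and Hk2 also passed without light damage replicates 1 and 2, described above, and the other 13 did not.

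**Figure D3:**
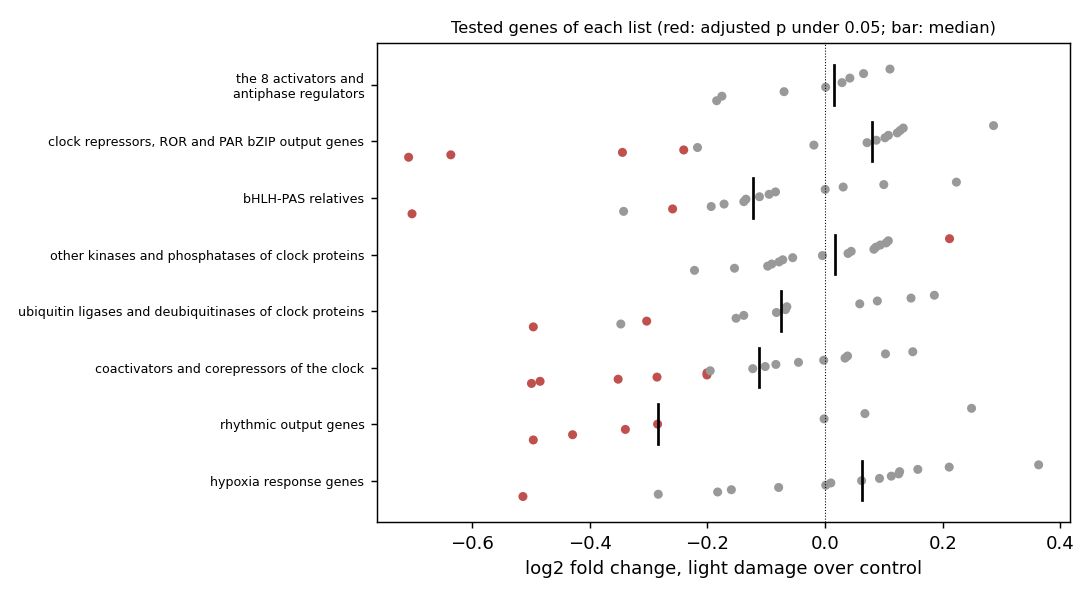
Log2 fold change of light damage over control for each tested gene of the 8 activators and antiphase regulators and of the 7 lists, red where the adjusted p by edgeR is under 0.05, with the median of each list as a bar. The 8 genes of the top row hold no red point, and the median of the rhythmic output genes, -0.28, is the lowest of the rows shown.

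**Figure D4:**
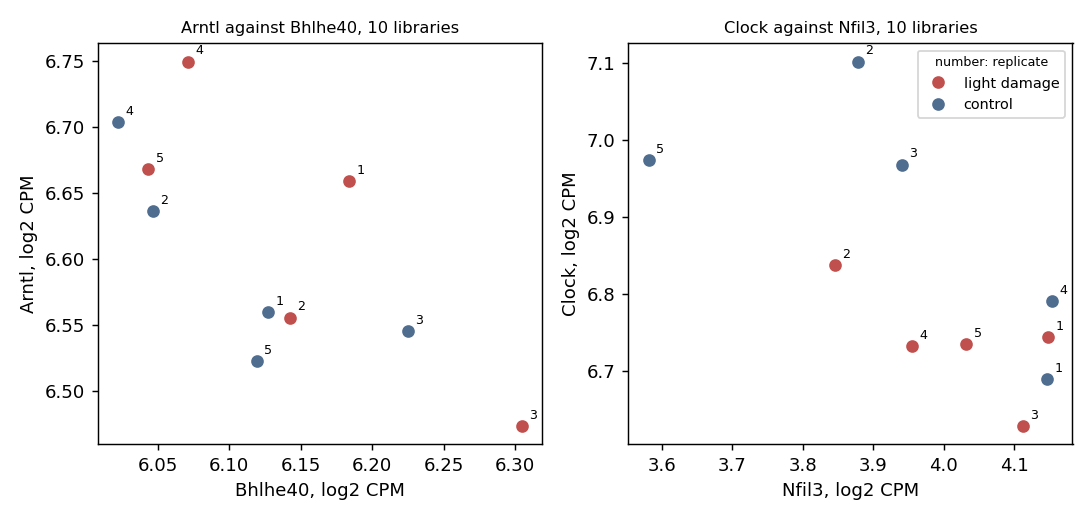
Log2 CPM of Arntl against Bhlhe40 (left) and of Clock against Nfil3 (right) in the 10 libraries, with the replicate number beside each point. Arntl is lowest where Bhlhe40 is highest, in light damage replicate 3.

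Across the 10 libraries the 8 genes form 28 pairs, and none of their correlations held after adjustment over the 28. Before adjustment 4 pairs had a Pearson permutation p under 0.05. The lowest permutation p belonged to Arntl and Bhlhe40, with Pearson's r of -0.74 (permutation p = 0.0147, adjusted 0.264) and Spearman's rho of -0.71 (permutation p = 0.027, adjusted 0.756). Within the groups, after subtracting each group's mean, r was -0.81, and without light damage replicates 3 and 4, the libraries farthest from the median of Arntl, it was -0.61. With the share of counts in the 10 most abundant genes, Arntl had r of 0.58 and Bhlhe40 of -0.67. The pair shares libraries, depth and scaling, and their part in r was not tested. Bhlhe40 and Csnk1e had r of 0.71 (permutation p = 0.0226, adjusted 0.264; rho 0.49, permutation p = 0.157), and r of 0.66 without light damage replicate 3 and control replicate 3. Clock and Nfil3 had r of -0.68 (permutation p = 0.0283, adjusted 0.264) and rho of -0.61 (permutation p = 0.0666). Without control replicates 2 and 5 their r was -0.57. With log2 total count Clock had r of -0.77 and Nfil3 of 0.64, and the part of depth in this pair was not tested. Bhlhe41 and Csnk1d had r of -0.64 (permutation p = 0.0473, adjusted 0.331) and rho of -0.44 (permutation p = 0.207). Without control replicates 4 and 5 the r of Bhlhe41 and Csnk1d was -0.8.

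The genes whose log2 CPM ran most like that of a given gene over the 10 libraries were taken from the 2 highest of 15538 Pearson correlations, so they carry no test. For Clock they were Clcn5 and Epm2aip1, both with r of 0.98, and for Arntl Btbd19 with 0.93. For Bhlhe40 they were Ccdc88b with 0.96 and Nek8 with 0.94, for Nfil3 Vrk3 and mt-Tw with 0.94 and 0.93, and for Npas2 Bsdc1 and Pla2g4b with 0.93 and 0.90. For Bhlhe41 they were Abcg1 and Nthl1 with 0.89 and 0.88, for Csnk1d Nos3 with 0.91, and for Csnk1e Fjx1 and Cyb561d2 with 0.92 and 0.91. None of these 14 genes was called between light damage and control, where 13.2% of all tested genes were. They were picked for likeness to genes that were not called, in the same libraries, so this count is no separate result.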

How the data were processed

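RNA-seq of mouse retina gave 10 libraries, for which the authors deposited 1 table of whole-number counts per gene and library. Per the submitters' processing notes, GRCm39, Bowtie2, DESeq2 1.4.5 and RSEM 1.3.1 were used, with no role stated. Strand, rounding and the handling of shared reads are not given in the sources used here, so counts of close relatives may hold some of each other's reads. Groups and replicate numbers came from the sample titles. Symbols came from a supplied table by Ensembl identifier, with 19892 matched, and transcript lengths from GENCODE M21 (GRCm38).

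The main test was that of edgeR 4.0.16 under R 4.3.3 (filterByExpr, TMM, robust quasi-likelihood test, group as the single term), with Benjamini-Hochberg adjustment over all 16852 genes tested. Called means an adjusted p under 0.05. Intervals are 95% t intervals on the fitted log2 fold change, with a prior count of 2 for log2 CPM. Ratios used a pseudocount of 0.5. Correlations were tested with 100000 permutations. DESeq2 1.42.0 and limma 3.58.1 were alternatives. Named genes outside the 8 were, in each list, up to 6 called genes with the lowest p, and the 2 most correlated genes of each of the 8 with a mean of at least 1 CPM. For Arntl and Csnk1d, 1 of these is not reported here. Dbp was named for its ratio, and Nr1d1 and Nr1d2 after their values were seen. The 8 genes and the lists were chosen with earlier results of these data known. The TAGGTTA variant was added after the promoters were seen. No pair of libraries agreed within sampling noise (lowest chi-square per degree of freedom 6.09). The fit was tested on simulated data. Alternatives covered tools, scaling, filters, a replicate block, a lens score (the mean over 9 lens markers of log2 CPM less each marker’s mean) and left-out libraries. Figures used Python 3.11.15 and matplotlib 3.10.9.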

Additional observations from a re-analysis of the deposited data

How the results depend on the processing

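Each of the 8 genes was refitted under 21 settings. Arntl, Bhlhe40, Bhlhe41, Csnk1d, Csnk1e, Nfil3 and Npas2 were called in none of them. Clock was called in 1, without control replicate 1, at a log2 fold change of -0.22; leaving out 1 library it ranged from -0.22 to -0.12, and the count of the 8 called lower from 0 to 1. Clock, Npas2, Bhlhe41, Bhlhe40 and Csnk1e kept their sign in all 21, and Csnk1d, near 0, changed it in 8, Arntl and Nfil3 in 1 each. Of the 93 genes in the 7 lists, 1 rose and 18 fell; 4 rose with DESeq2, 2 with limma-voom, 3 with library totals alone and 2 without robust dispersion. Leaving out 1 library gave 0 to 3 higher and 9 to 19 lower, the lowest without control replicate 5. Light damage replicates 1, 3 and 4 also moved it, to 11, 10 and 11 lower. Without light damage replicates 1 and 2 together 0 rose and 5 fell, and with the lens score as a covariate 0 rose and 2 fell, where 1 and 7 of all tested genes did; the cause was not tested. That score was higher in most light damage libraries than in controls, so it shares much of its variation with the group. Same-numbered libraries had residual correlations of 0.05 to 0.32, the highest for replicate 3. For light damage replicates 3 and 4 the same-numbered control matched best, and for the rest another control did. These values do not settle whether the numbers pair libraries. With the replicate number as a block 0 of the 8 genes were called, Clock had an adjusted p of 0.0512 by edgeR, and 4 list genes rose and 22 fell. Over all tested genes 1431 rose and 1854 fell in that fit, against 896 and 1323 without the block. The 4 ratios kept their side of the threshold in every setting. Leaving out libraries raises the smallest p that the permutation test allows, so those fits are a weak check. With 5 pairs the blocked test of a ratio cannot pass. Library totals alone turned the counts over all genes from 896 higher and 1323 lower to 1147 and 912, and 12 list genes fell. Npas2 had the fewest counts, 47 to 71 in a library, and the widest interval of the 8 genes.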
